A study of Homo sapiens with 8 samples.

Results

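The 39 genes described here are genes of mitosis and the G2/M transition, from cyclin B1 (CCNB1) and its kinase CDK1 to the proliferation antigen MKI67. They were taken by name, and no measured value enters the rule, although the list was drawn up with earlier results of these data known. All 39 were found among the 25369 genes of the deposited tables, with the shugoshin gene under its older symbol SGOL1. Every one of them was among the 15879 genes with enough reads for testing, and none had fewer than 130 reads in any library.

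The RNA came from the human neuroblastoma line CHP212, either unmodified (WT) or labelled as a knockout of FAM193A (KO), and was read as poly(A) RNA-seq. Cells of both kinds received Nutlin-3a at 10 uM or, as vehicle control, DMSO at 0.2% for 12 h, which gives 4 groups of 2 biological replicates and 8 libraries in all. Nutlin-3a is a small molecule that blocks the binding of p53 by its inhibitor MDM2, and all 4 groups share the CHP212 background. The labels name a single KO population and do not describe the edit, so the loss of FAM193A cannot be told apart from any other property of that population, and p-values between genotypes measure the spread between replicates only.

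Library totals were 28390405 to 38010075 reads. FAM193A itself, a gene listed here only as a check of the labels, had 1138 to 1548 reads in every library. With DMSO it averaged 33.5 CPM in the KO against 42.0 CPM in the WT libraries. On the log2 scale it was lower in KO cells under DMSO (-0.33, edgeR adjusted p = 0.000999) and Nutlin-3a (-0.24, edgeR adjusted p = 0.00827). Genotypes did not overlap in either treatment. At an adjusted p under 0.05, 30.1% and 30.4% of all tested genes were lower too, so its level says little about the labels. CPM is the read count relative to the library total, with totals scaled by TMM factors. HAND2, a transcription factor gene of the sympathetic lineage, was abundant in all 8 libraries (577 to 858 CPM). Of 12 markers of other cell types, COL1A1 was abundant in each library (3218 to 4927 CPM) and DCN ran from 4.35 to 35.6 CPM, with all 4 KO libraries above the WT libraries. The other 10 summed to between 2.83 and 5.67 CPM, and CD3E had 0 reads in each library. In 3 libraries, namely KO Nutlin-3a replicate 2, WT DMSO replicate 2 and replicate 1 of WT Nutlin-3a, 23 to 55 genes had at least 20 reads and over 4-fold the level of the other replicate, against 2 to 8 genes in the other libraries. None of the 39 members was among those genes.

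Mitosis is driven by the cyclin B-CDK1 kinase, which CDC25 phosphatases switch on, together with the Polo and Aurora kinases. The spindle checkpoint holds back the anaphase-promoting complex until every kinetochore is attached to microtubules, after which securin and cyclin B are destroyed and the cell divides. Transcripts of these genes are known to peak together in G2 and M phase. In cells with active p53, the CDK inhibitor p21 (CDKN1A) is known to favour the DREAM complex, a repressor that binds promoters through cell cycle genes homology region (CHR) letters, while CCAAT letters are bound by the activator NF-Y.

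To show what these promoters look like, stretches of 120 bases before the annotated start are printed for 8 members, from RefSeq (GRCh38.p14), 5′ to 3′ on the gene's strand. Capitals mark CHR letters, which are TTTGAA in one form and TTCGAA in another, and CCAAT letters. Matches on either strand count, so a CCAAT match may read ATTGG and a CHR match may read TTCAAA. CCNB2, PLK1, CDC20, KIF11, PRC1 and MKI67 stand for members with both kinds of letters, CCNB1 and PTTG1 for members with CCAAT letters alone.
CCNB2 (chr15:59105026-59105145, plus strand): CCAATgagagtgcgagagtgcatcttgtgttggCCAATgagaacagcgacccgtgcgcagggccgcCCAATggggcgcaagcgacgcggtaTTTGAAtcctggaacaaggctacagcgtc
PLK1 (chr16:23678769-23678888, plus strand): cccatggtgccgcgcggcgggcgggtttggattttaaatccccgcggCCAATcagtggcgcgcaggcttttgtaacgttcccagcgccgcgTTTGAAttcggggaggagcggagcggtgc
CDC20 (chr1:43358861-43358980, plus strand): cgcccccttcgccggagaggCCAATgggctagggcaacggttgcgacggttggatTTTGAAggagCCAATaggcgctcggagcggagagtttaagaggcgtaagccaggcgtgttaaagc
KIF11 (chr10:92593010-92593129, plus strand): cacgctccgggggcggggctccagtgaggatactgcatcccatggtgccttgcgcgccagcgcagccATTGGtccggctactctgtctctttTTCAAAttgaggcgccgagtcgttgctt
PRC1 (chr15:90994536-90994655, minus strand): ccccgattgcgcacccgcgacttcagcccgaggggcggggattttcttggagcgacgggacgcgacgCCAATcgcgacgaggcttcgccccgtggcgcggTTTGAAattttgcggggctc
MKI67 (chr10:128126424-128126543, minus strand): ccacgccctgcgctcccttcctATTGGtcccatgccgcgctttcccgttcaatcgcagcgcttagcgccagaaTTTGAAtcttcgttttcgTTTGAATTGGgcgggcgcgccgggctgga
CCNB1 (chr5:69167030-69167149, plus strand): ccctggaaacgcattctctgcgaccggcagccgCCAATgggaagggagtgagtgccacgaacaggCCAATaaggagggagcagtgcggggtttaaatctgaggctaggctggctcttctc
PTTG1 (chr5:160421735-160421854, plus strand): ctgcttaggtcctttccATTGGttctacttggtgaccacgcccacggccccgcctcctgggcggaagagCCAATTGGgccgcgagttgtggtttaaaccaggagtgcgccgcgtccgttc
The CHR letters lay close to the start in the first 6 promoters, with CCAAT letters nearby. In MKI67 the second CHR match and a CCAAT match share 1 base, and in PTTG1 a pair of CCAAT matches shares 2 bases.

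Windows of 300 bases, 250 before the start and 50 after it, were found in the RefSeq table for 34 of the 39 members. AURKA, TTK, UBE2C, BIRC5 and TPX2 had no entry. Where a gene has several starts, the most upstream one was used. CHR letters occurred in 24 of the 34 windows (70.6%), against 16.7% of the windows of all 27305 genes searched the same way. CCAAT letters occurred in 25 of 34 (73.5% against 35.7%), and both kinds together in 20 of 34 (58.8% against 6.63%). Within 100 bases before the start, CHR letters were present in 15 members (44.1% against 5.23%). E2F letters, searched on either strand as TTGGCGC and in the variant forms TTCCCGC and, last, TTCGCGC, were present in 7 members (20.6% against 11.1%). A match is a run of letters, not a measured binding site. The 10 members without CHR letters in this window were CCNB1, CDC25B, CDC25C, AURKB, NEK2, MELK, PTTG1, CENPE, KIF20A and KIF2C, and for CDC25B and CDC25C another listed start has them. The start listed for AURKB may lie downstream of its main one, so its window may not hold its promoter.

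**Figure D1:**
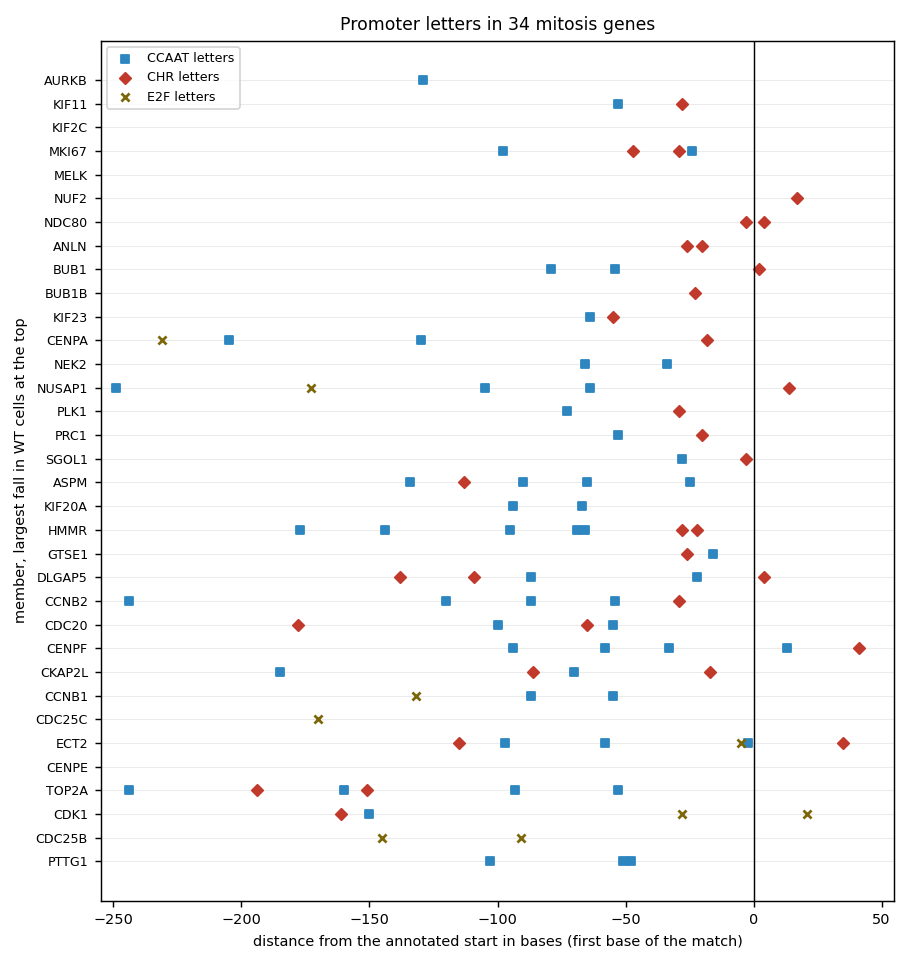
Positions of CHR, CCAAT and E2F letters in the promoter windows of 34 members, by distance in bases from the annotated start (vertical line), with members ordered by their fall under Nutlin-3a in WT cells, largest at the top. Of the 24 members with CHR marks, 15 have one within 100 bases before the start, and other marks lie farther upstream or after it. Members with and without CHR marks occur from top to bottom.

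Nutlin-3a lowered all 39 mitosis genes in both genotypes, and lowered them less in KO cells. In edgeR's quasi-likelihood test over all 15879 genes (a call is an adjusted p under 0.05), 39 of 39 members were called lower in WT cells, where 29.2% of all tested genes were called lower. In KO cells 39 of 39 were called lower as well, against a background of 20.6%. The median log2 fold change of the members was -1.47 in WT cells, which leaves 36.2% of the DMSO level, and -0.84 in KO cells, which leaves 55.8%. Over all tested genes the medians were 0.017 and -0.0057. A fall of more than 2-fold was called for 35 members in WT cells, against 5.77% of all tested genes, and for 10 in KO cells, against 1.46%. The largest adjusted p among the members was 8.75e-07 in WT and 0.000732 in KO cells. In bulk RNA, fewer cells in G2 and M phase and less RNA per such cell cannot be told apart.

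Summed over the 39 members, WT libraries held 6342 and 6432 CPM with DMSO and 2478 and 2577 CPM with Nutlin-3a. KO libraries held 5414 and 5775 CPM with DMSO and 3123 and 3297 CPM with Nutlin-3a. No library of one group overlapped another, and the order from high to low was WT DMSO, KO DMSO, KO Nutlin-3a and WT Nutlin-3a. The mean sum under Nutlin-3a was 39.6% of that under DMSO in WT and 57.4% in KO cells. KO cells held 87.6% of the WT sum under DMSO and 127% of it under Nutlin-3a. TOP2A alone gave 1275 and 1290 of the CPM in WT DMSO libraries.

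**Figure D2:**
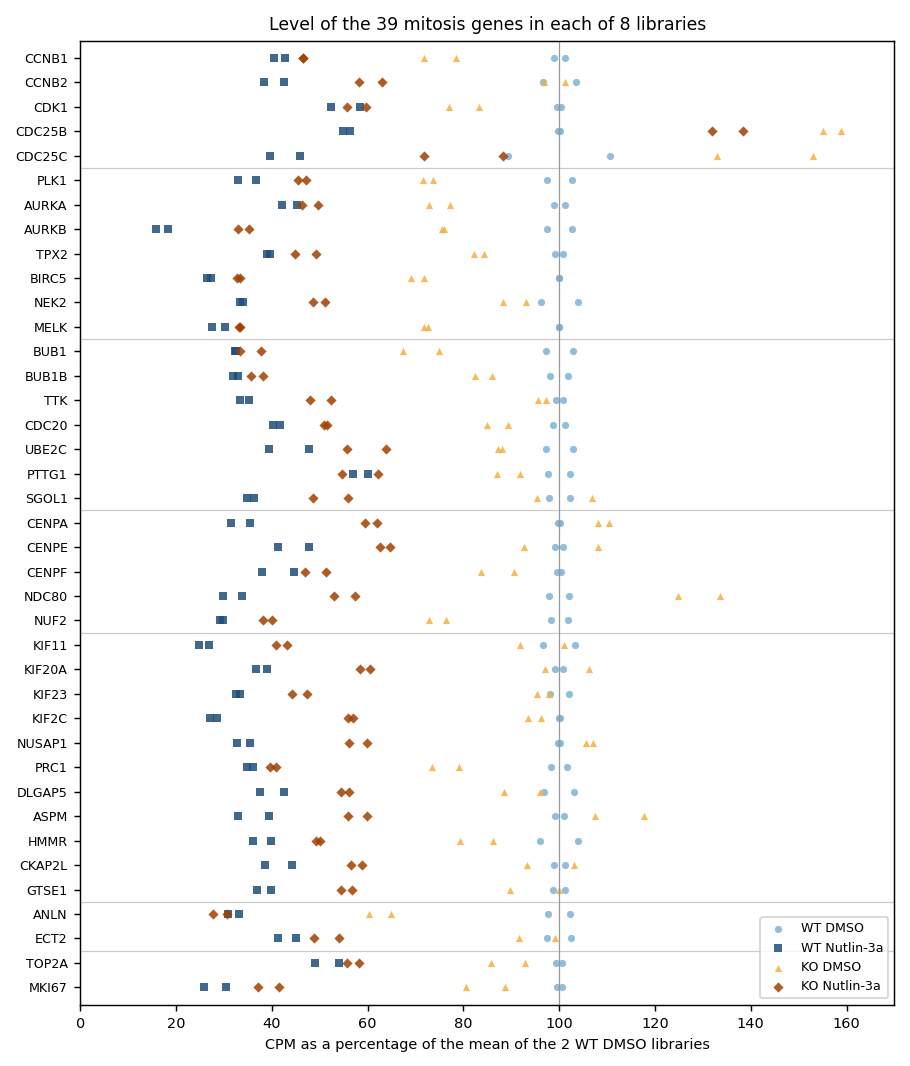
Level of each of the 39 members in each of the 8 libraries, as a percentage of the mean CPM of the 2 WT DMSO libraries, grouped by role from top to bottom. For most genes WT Nutlin-3a libraries (dark squares) lie farthest left and KO Nutlin-3a libraries (diamonds) to their right. The 2 overlap for CDK1 and PTTG1, and the order is reversed for ANLN. KO DMSO libraries (triangles) lie above 100% for CDC25B, CDC25C, NDC80, ASPM and CENPA, among others.

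The change in KO cells was smaller than that in WT cells for every member, between 25.4% of it on the log2 scale for CDC25B and 79.8% for PTTG1, with a median of 59.6%. The interaction term, the KO response minus the WT response, was called higher for 37 of 39 members, where 14.2% of all tested genes were called higher and 13.4% lower. Its median was 0.58 over the members and -0.0032 over all tested genes. The exceptions were CDC25C (0.38, edgeR adjusted p = 0.155; 95% interval -0.15 to 0.92) and PTTG1 (0.16, adjusted p = 0.213; interval -0.090 to 0.40). Members that responded more in WT cells also tended to respond more in KO cells (Pearson r 0.787 and Spearman rho 0.821 across 39 genes, which are not independent replicates; the 2 responses share no library). Over the 10632 tested genes whose mean log2 CPM was 3 or more these values were 0.874 and 0.802.

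**Figure D3:**
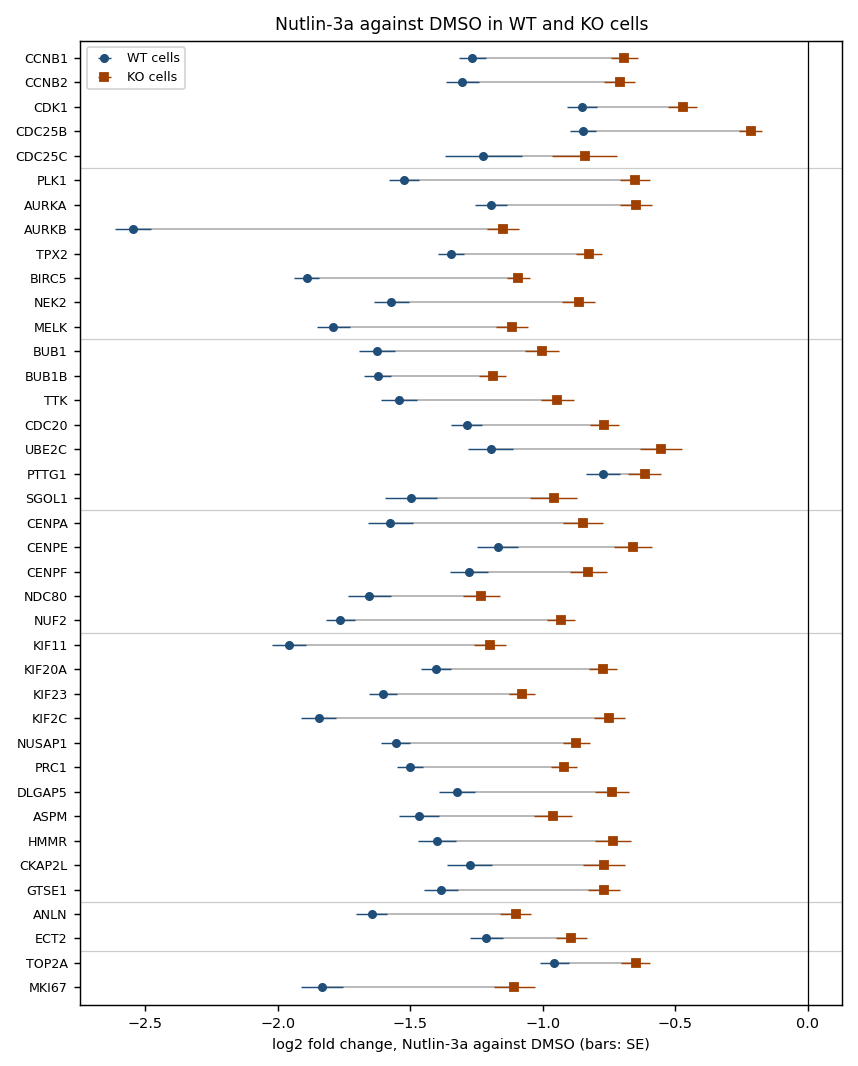
Log2 fold change of each member under Nutlin-3a against DMSO in WT cells (circles) and KO cells (squares), with SE bars, grouped by role. Every square lies to the right of its circle and to the left of 0, the widest gap is at AURKB and the narrowest at PTTG1.

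Without Nutlin-3a the genotypes differed less and in mixed directions. Under DMSO, 20 of 39 members were called lower in the knockout and 4 higher, where 30.1% of all tested genes were called lower and 31.4% higher. Of the rest, 15 were not called, and the median over the members was -0.16 (0.014 over all tested genes). The range ran from -0.68 for ANLN to 0.65 for CDC25B. Under Nutlin-3a, 34 of 39 were called higher in KO cells and 0 lower, against 32.7% and 30.4% of all tested genes, with a median of 0.47 (0.018 over all tested genes). At an unadjusted p under 0.05 the count of lower members was 1, and DESeq2's Wald test called 0 lower. The 5 members not called under Nutlin-3a were CDK1 (0.060), AURKA (0.13), BUB1 (0.13), PTTG1 (-0.0060) and ANLN (-0.13). With limma-trend on log2(RPKM + 0.1), CDK1, AURKA and BUB1 were called higher as well (adjusted p = 0.0461, 0.005 and 0.0225), AURKA and BUB1 also with upper-quartile factors (adjusted p = 0.0233 and 0.0452). Single libraries decided some of these calls. Without KO DMSO replicate 1, 14 members were called lower under DMSO, and CDC20, CENPF, MKI67, NEK2, PTTG1 and TOP2A did not pass (edgeR adjusted p = 0.0621 to 0.299). Without KO Nutlin-3a replicate 2, 29 members were called higher under Nutlin-3a, and CCNB1, BUB1B, CENPF, ECT2 and TOP2A did not pass (adjusted p = 0.0575 to 0.209). The KO-WT comparisons and the responses share libraries, so their values are set side by side and not as independent results.

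**Figure D4:**
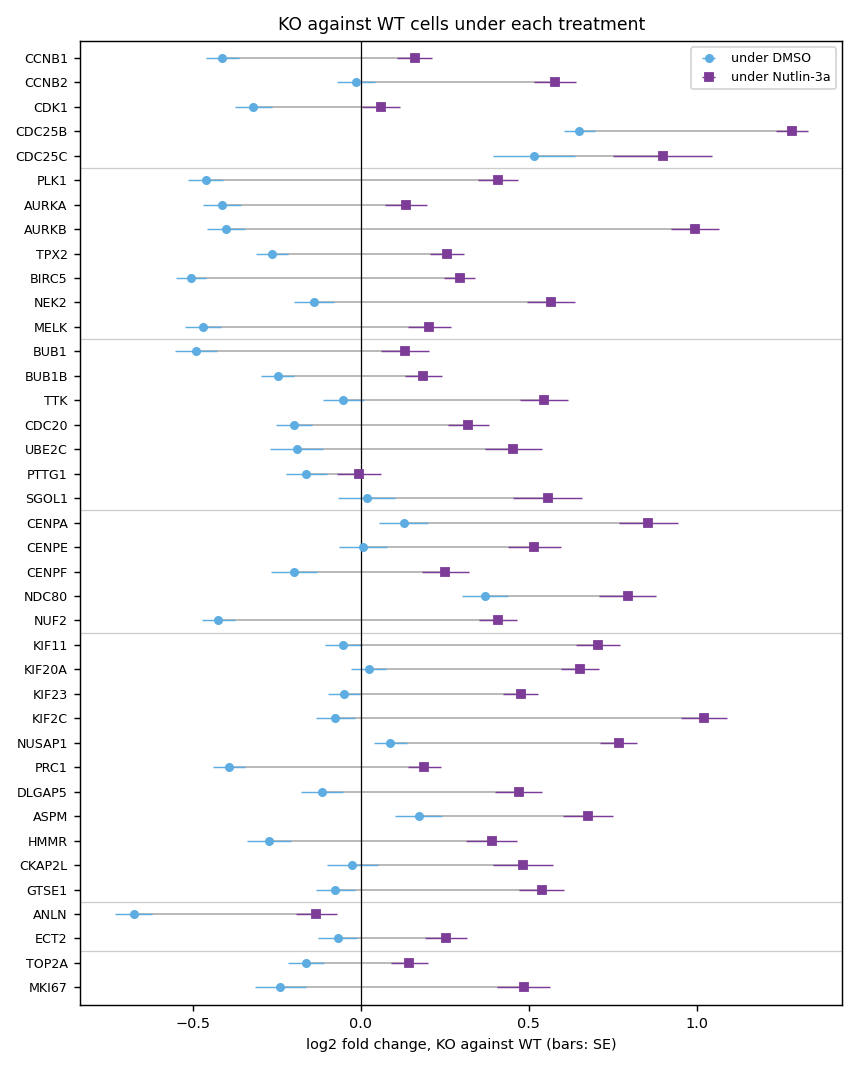
Log2 fold change of each member in KO against WT cells under DMSO (circles) and under Nutlin-3a (squares), with SE bars. The squares lie to the right of the circles for all 39 members, the circles spread on both sides of 0, and CDC25B lies farthest right under both treatments.

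The cyclin B-CDK1 kinase and its switches comprised 5 members, and all 5 were called lower in both genotypes. CCNB1, the mitotic cyclin, stood at 202 and 207 CPM with DMSO and 87.3 and 82.7 with Nutlin-3a in WT libraries, and 147 and 160.3 with DMSO and 95.1 and 95.0 with Nutlin-3a in KO libraries. Both genotypes fell without overlap, and KO cells started lower and ended higher than WT cells. Its log2 fold change was -1.27 (SE 0.051) in WT and -0.69 (SE 0.050) in KO cells (interaction 0.57, edgeR adjusted p = 9.42e-06). CDK1, its catalytic partner, measured 190.5 and 189 CPM with DMSO and 111 and 99.5 with Nutlin-3a in WT libraries, and 146 and 158 with DMSO and 106 and 113 with Nutlin-3a in KO libraries. The Nutlin-3a libraries of the 2 genotypes overlapped, so the smaller KO response (-0.47, SE 0.056, against -0.85, SE 0.057) went with a lower KO level under DMSO (-0.32, adjusted p = 6.27e-05). The CDK1 difference under Nutlin-3a was called without WT Nutlin-3a replicate 1 (0.13, adjusted p = 0.03). CCNB2, the second B-type cyclin, differed little between genotypes under DMSO (-0.015, 95% interval -0.17 to 0.14) and was higher in KO cells under Nutlin-3a (0.58, adjusted p = 1.96e-07).

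The CDC25 phosphatases, which remove the inhibitory phosphates from CDK1, were both higher in KO cells with DMSO, which was also called for NDC80 and ASPM and for no other member. CDC25B had 128 and 129 CPM with DMSO and 72.2 and 70.5 with Nutlin-3a in WT libraries, and 199 and 204 with DMSO and 178 and 169 with Nutlin-3a in KO libraries. KO cells under Nutlin-3a thus held more CDC25B than untreated WT cells, and no libraries of different groups overlapped. The KO response was the smallest of all members (-0.22, SE 0.044, adjusted p = 0.000732), and KO exceeded WT cells by 0.65 (SE 0.045) under DMSO and 1.28 (SE 0.047) under Nutlin-3a on the log2 scale. CDC25C, the member with the lowest CPM, measured 13.1 and 10.5 CPM with DMSO and 5.41 and 4.67 with Nutlin-3a in WT libraries, and 15.7 and 18.0 with DMSO and 8.47 and 10.4 with Nutlin-3a in KO libraries. Its libraries also kept apart between genotypes, with a KO-WT difference of 0.51 (SE 0.12) under DMSO and 0.90 (SE 0.15) under Nutlin-3a. The interval of its interaction spans 0, so a smaller or equal response in KO cells was not resolved.

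Among 7 mitotic kinases and their partners, all 7 were called lower in both responses, and with DMSO all 7 were lower in KO cells. AURKB, the kinase of the chromosomal passenger complex, changed most of all members in WT cells. It stood at 105 and 110.5 CPM with DMSO and 19.7 and 17.0 with Nutlin-3a in WT libraries, and 81.2 and 81.8 with DMSO and 35.5 and 38.0 with Nutlin-3a in KO libraries. Nutlin-3a left 17.1% of the DMSO level in WT cells (-2.55, SE 0.068) and 45.0% in KO cells (-1.15, SE 0.061). The interaction of 1.40 (SE 0.092, edgeR adjusted p = 6.46e-09) was the largest of the 39. BIRC5 (survivin), a subunit of the same complex, fell from 367 and 367 to 100.4 and 97.3 CPM in WT and from 254 and 263 to 120.3 and 122 CPM in KO libraries. Its KO level was below WT under DMSO (-0.51, SE 0.043) and above it under Nutlin-3a (0.29, SE 0.046), with no overlap in either.

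PLK1, the Polo kinase of mitotic entry and spindle assembly, showed the same crossing. It measured 124 and 130.5 CPM with DMSO and 46.6 and 41.9 with Nutlin-3a in WT libraries, and 93.5 and 91.1 with DMSO and 57.7 and 59.8 with Nutlin-3a in KO libraries. Its fall was -1.52 (SE 0.057) in WT and -0.65 (SE 0.055) in KO cells, which gives an interaction of 0.87 (adjusted p = 2.39e-07). AURKA, the centrosome kinase, had 78.1 and 80.0 CPM with DMSO and 35.7 and 33.3 with Nutlin-3a in WT libraries, and 57.6 and 61.0 with DMSO and 36.6 and 39.2 with Nutlin-3a in KO libraries. Its genotypes were set apart under DMSO (-0.41, SE 0.057), while the difference under Nutlin-3a was 0.13 (adjusted p = 0.0724). A processed copy, AURKAPS1, was read at a mean of 2.02 CPM in untreated and 4.47 CPM in Nutlin-3a-treated WT libraries and could share reads with AURKA. TPX2, which activates AURKA on spindle microtubules, went from 239.9 and 244 to 96.0 and 94.3 CPM in WT and from 199 and 204 to 108 and 119 CPM in KO libraries. NEK2, a centrosome kinase, and MELK had falls of -1.57 and -1.79 in WT cells and -0.86 and -1.12 in KO cells. The KO-WT call of NEK2 under DMSO was at the threshold (-0.14, adjusted p = 0.0499).

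All 7 members of the checkpoint and anaphase group were called lower in both responses, and 6 had a called interaction. BUB1, a checkpoint kinase at kinetochores, measured 103 and 97.4 CPM with DMSO and 32.3 and 32.6 with Nutlin-3a in WT libraries, and 67.5 and 75.0 with DMSO and 33.5 and 37.7 with Nutlin-3a in KO libraries. The KO level was lower under DMSO (-0.49, SE 0.062), and the difference of 0.13 under Nutlin-3a did not pass (adjusted p = 0.114). TTK (MPS1), the kinase that starts checkpoint signalling, went from 49.8 and 50.6 to 17.7 and 16.8 CPM in WT and from 47.9 and 48.9 to 24.0 and 26.3 CPM in KO libraries. Here the order was the other way round from BUB1: the difference under DMSO was -0.052 (adjusted p = 0.47) and that under Nutlin-3a 0.54 (adjusted p = 2.61e-06). BUB1B (BUBR1), which inhibits the anaphase-promoting complex, had falls of -1.62 in WT and -1.19 in KO cells.

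CDC20, the activator that the checkpoint holds back, stood at 68.8 and 70.5 CPM with DMSO and 29.0 and 28.0 with Nutlin-3a in WT libraries, and 59.1 and 62.1 with DMSO and 35.4 and 35.9 with Nutlin-3a in KO libraries. The 4 groups were separate, with an interaction of 0.52 (SE 0.080, edgeR adjusted p = 9.09e-05). UBE2C, the ubiquitin-conjugating enzyme of the anaphase-promoting complex, varied more between replicates, at 109 and 115 CPM with DMSO and 53.3 and 44.1 with Nutlin-3a in WT libraries, and 98.5 and 97.4 with DMSO and 62.2 and 71.4 with Nutlin-3a in KO libraries. Its responses were -1.20 (SE 0.084) in WT and -0.55 (SE 0.080) in KO cells. PTTG1 (securin), which inhibits separase until anaphase, was the member with the smallest fall in WT cells. It measured 81.7 and 78.1 CPM with DMSO and 48.0 and 45.5 with Nutlin-3a in WT libraries, and 69.5 and 73.4 with DMSO and 43.6 and 49.7 with Nutlin-3a in KO libraries, and the Nutlin-3a libraries of both genotypes overlapped. Nutlin-3a left 58.6% of its DMSO level in WT and 65.2% in KO cells. Its near-identical relatives PTTG2 (0 or 1 read) and PTTG3P (0 reads) took almost no reads. SGOL1 (shugoshin), which protects centromeric cohesion, had responses of -1.50 in WT and -0.96 in KO cells. Its interaction of 0.54 was 0.36 without the 3 libraries named above for genes that differed between replicates.

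In the centromere and kinetochore group, 5 of 5 members were called lower in both responses and 5 of 5 were called higher in KO than in WT cells under Nutlin-3a. CENPA, the histone H3 variant that marks centromeres, stood at 28.0 and 28.1 CPM with DMSO and 9.92 and 8.84 with Nutlin-3a in WT libraries, and 30.3 and 30.9 with DMSO and 16.6 and 17.4 with Nutlin-3a in KO libraries. KO cells held more CENPA than WT cells under Nutlin-3a (0.86, SE 0.087), while the difference under DMSO was 0.13 (adjusted p = 0.136). CENPE, a kinetochore motor, had 78.5 and 79.8 CPM with DMSO and 32.7 and 37.8 with Nutlin-3a in WT libraries, and 73.3 and 85.5 with DMSO and 49.5 and 51.1 with Nutlin-3a in KO libraries, with overlap of the genotypes under DMSO only. CENPF, a large outer kinetochore protein, went from 511 and 515 to 194 and 229 CPM in WT and from 429 and 464 to 240.1 and 263 CPM in KO libraries. Its WT Nutlin-3a replicates lay farther apart than the higher of them lay from the lower KO Nutlin-3a library. The KO-WT difference under Nutlin-3a was 0.25 (adjusted p = 0.00741), and 0.058 without the 3 libraries named above for genes that differed between replicates.

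NDC80 and NUF2, which together form the microtubule-binding arm of the kinetochore, moved differently with genotype. NDC80 measured 37.8 and 39.4 CPM with DMSO and 13.0 and 11.5 with Nutlin-3a in WT libraries, and 48.1 and 51.5 with DMSO and 20.4 and 22.1 with Nutlin-3a in KO libraries. It was higher in KO cells under DMSO (0.37, SE 0.068, edgeR adjusted p = 0.000127) and had the largest KO response of the 39 (-1.23, SE 0.071). NDC80 is on chromosome 18, where the median KO-WT difference of tested genes was 0.22 under DMSO. Less that median, its difference was 0.15. NUF2 measured 120.1 and 124 CPM with DMSO and 36.4 and 35.6 with Nutlin-3a in WT libraries, and 88.9 and 93.3 with DMSO and 46.6 and 49.0 with Nutlin-3a in KO libraries. Its KO level was lower under DMSO (-0.42, SE 0.050) and higher under Nutlin-3a (0.41, SE 0.056).

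The largest group, 11 spindle motors and microtubule binders, was called lower throughout in both responses, and all 11 were called higher in KO than in WT cells under Nutlin-3a. Under DMSO 8 of the 11 were not called. KIF11 (Eg5), the motor that pushes spindle poles apart, measured 123 and 132 CPM with DMSO and 31.5 and 34.1 with Nutlin-3a in WT libraries, and 117 and 128 with DMSO and 52.0 and 54.9 with Nutlin-3a in KO libraries. Genotypes overlapped under DMSO and were apart under Nutlin-3a, and the interaction was 0.76 (SE 0.086, edgeR adjusted p = 3.26e-06). KIF20A, a motor of the central spindle, went from 122 and 120.3 to 44.6 and 47.3 CPM in WT and from 118 and 129 to 71.0 and 73.3 CPM in KO libraries. KIF23, the motor of the centralspindlin complex, went from 155 and 162 to 52.8 and 51.4 CPM in WT and from 151 and 155 to 70.0 and 75.0 CPM in KO libraries. Both started at like levels in the 2 genotypes (0.024 and -0.050 under DMSO, not called) and ended higher in KO cells (0.65 and 0.48).

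KIF2C (MCAK), a microtubule depolymerase, had the second-largest interaction, 1.10 (SE 0.090, edgeR adjusted p = 7.85e-08). It measured 50.1 and 50.1 CPM with DMSO and 13.6 and 14.3 with Nutlin-3a in WT libraries, and 46.8 and 48.2 with DMSO and 28.0 and 28.6 with Nutlin-3a in KO libraries. Replicates lay close together, and KO cells stood 1.02 above WT cells on the log2 scale under Nutlin-3a. GTSE1, which binds microtubules and is known to restrain p53, measured 77.8 and 76.0 CPM with DMSO and 28.4 and 30.6 with Nutlin-3a in WT libraries, and 69.0 and 76.8 with DMSO and 43.7 and 41.9 with Nutlin-3a in KO libraries. It fell by 1.38 on the log2 scale in WT and by 0.77 in KO cells, near the middle of the members. ASPM, a spindle pole protein, had 195 and 198 CPM with DMSO and 64.8 and 77.6 with Nutlin-3a in WT libraries, and 211 and 232 with DMSO and 109.7 and 118 with Nutlin-3a in KO libraries. Its higher KO level under DMSO was at the threshold (0.17, adjusted p = 0.0493) and was not called by DESeq2. PRC1, which bundles the central spindle, and HMMR were the 2 of the group called lower in KO cells under DMSO (-0.39 and -0.27). The interactions of NUSAP1, DLGAP5 and CKAP2L, all microtubule-associated proteins, were 0.68, 0.58 and 0.51.

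Of the 2 cytokinesis genes, ANLN, the actin-binding scaffold of the contractile ring, had the lowest KO level relative to WT. It measured 209.8 and 219.6 CPM with DMSO and 66.0 and 71.2 with Nutlin-3a in WT libraries, and 129 and 139 with DMSO and 59.5 and 65.8 with Nutlin-3a in KO libraries. ANLN was the only member whose KO libraries both lay below both WT libraries under Nutlin-3a, a difference of -0.13 (SE 0.060, adjusted p = 0.0644). This difference was called with DESeq2 size factors, without the low-count filter and with the replicate block. It was -0.27 without the 3 libraries named above, -0.19 without WT Nutlin-3a replicate 1 and -0.21 without KO Nutlin-3a replicate 2. Each of these fits leaves a lone library in a group compared. ECT2, the exchange factor that activates RhoA at the division site, had responses of -1.21 in WT and -0.89 in KO cells and one of the smallest called interactions (0.32, adjusted p = 0.00919). That interaction did not pass without WT DMSO replicate 1, KO DMSO replicate 1 or KO Nutlin-3a replicate 2 (adjusted p = 0.0685, 0.0777 and 0.0842).

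TOP2A, the topoisomerase that untangles sister chromatids, was the most abundant member by both measures used here. It measured 1275 and 1290 CPM with DMSO and 629 and 692 with Nutlin-3a in WT libraries, and 1101 and 1191 with DMSO and 714 and 748 with Nutlin-3a in KO libraries. The groups did not overlap, and the interaction of 0.31 (SE 0.077, edgeR adjusted p = 0.0057) was the smallest called. Without KO DMSO replicate 1 it did not pass (0.25, adjusted p = 0.0722). The higher KO level under Nutlin-3a (0.14, adjusted p = 0.0272) was 0.031 without the 3 libraries named above for genes that differed between replicates. MKI67 (Ki-67), which coats mitotic chromosomes and is the usual stain for cycling cells, measured 363 and 359 CPM with DMSO and 92.8 and 109.9 with Nutlin-3a in WT libraries, and 291 and 319.9 with DMSO and 134 and 149.5 with Nutlin-3a in KO libraries. Nutlin-3a left 28.1% of the DMSO level in WT cells and 46.4% in KO cells.

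Levels between genes can be compared per length, in RPKM (reads relative to gene length and library total). TOP2A led in every group, at 217 ± 0.985 RPKM with DMSO and 112 ± 8.34 RPKM with Nutlin-3a in WT libraries (mean ± SD, n = 2). BIRC5 (132 ± 0.457 RPKM), PRC1 (101 ± 2.07), CCNB1 (91.7 ± 1.19) and UBE2C (86.3 ± 3.16) followed in WT DMSO libraries. Each of these steps down was larger than the SDs of both neighbours. SGOL1 (5.14 ± 0.145) and CDC25C (4.46 ± 0.686) were last, and lay apart by less than the SD of CDC25C. AURKB and CDC25B changed place most. AURKB went from rank 6 in WT DMSO to rank 17 in WT Nutlin-3a, and CDC25B went from rank 21 in WT DMSO to rank 7 in KO Nutlin-3a libraries. WT responses showed little relation to the level in KO DMSO libraries, which share no library with them (Pearson r 0.087 and Spearman rho 0.12 across 39 genes).

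The members with CHR letters in the promoter window had a median WT response of -1.50 (24 genes), and the 10 without had -1.33. The ranges overlapped widely, from -1.96 to -0.85 with the letters and from -2.55 to -0.77 without. For CCAAT letters the medians were -1.40 in 25 genes with and -1.65 in 9 without. The value of -2.55 is that of AURKB.

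Replicates of these genes were not equally alike in all groups. In WT Nutlin-3a cells, the difference between replicates 2 and 1 went with gene length across the members (Pearson r 0.813 and Spearman rho 0.782 across 39 genes of 1160 to 12495 bases). Over the 10632 genes of the wider set it was 0.515 and 0.562, so the pattern was not limited to mitosis genes. CENPF, ASPM and MKI67, the longest members, were higher in replicate 2, and UBE2C and AURKB, among the shortest, were lower. In KO DMSO cells the correlation with length was 0.536 over the members and 0.08 over those 10632 genes. Replicate 2 was the higher one for 37 of 39 members in KO DMSO and 34 of 39 in KO Nutlin-3a cells. The medians were 0.097 and 0.093 on the log2 scale. All tested genes were not counted in this way, so whether this was particular to the members was not tested. The fold changes themselves had little relation to length (Pearson r 0.05 for the WT and -0.146 for the KO response). For the interaction it was -0.229 over the members and -0.127 over those 10632 genes (Spearman rho -0.293 and -0.155). The median WT response stayed between -1.47 and -1.44 when each library was left out in turn.

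**Figure D5:**
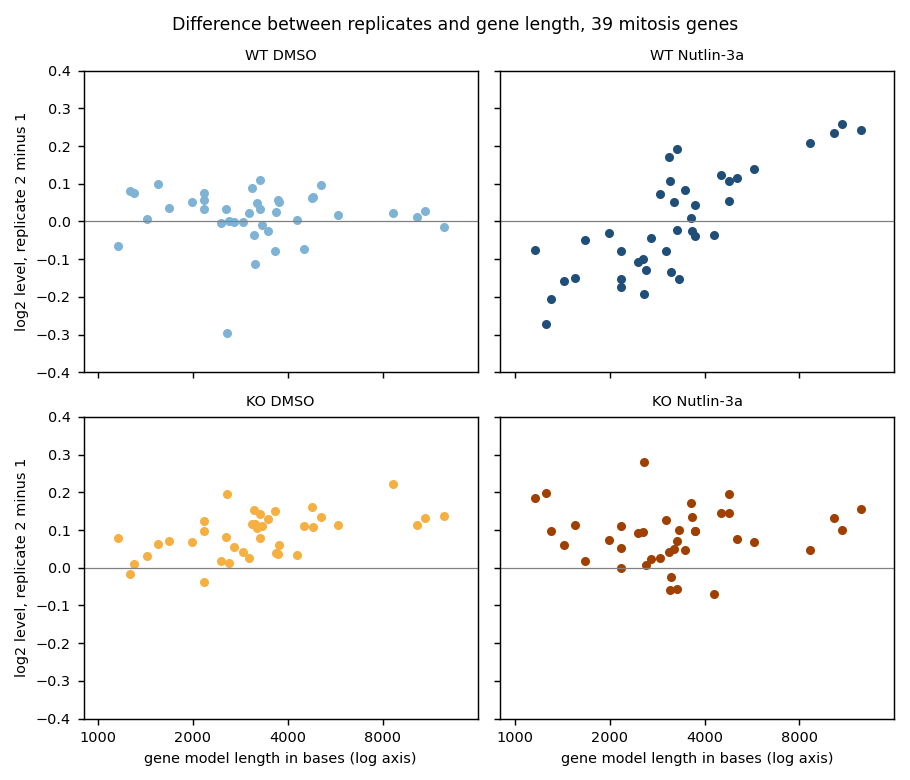
Difference in log2 level between replicate 2 and replicate 1 for each of the 39 members against gene model length in bases (log axis), one panel per group. The points climb from left to right in WT Nutlin-3a cells, lie near 0 in WT DMSO cells, and lie mostly above 0 in both KO panels.

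Other cyclic mitosis genes, a list of 55 that includes the condensins, further kinesins and Aurora B partners, moved as the members did. Of the 55, 55 were called lower in WT and 55 in KO cells, against 29.2% and 20.6% of all tested genes. The median log2 fold changes were -1.55 and -0.92. A called positive interaction was found for 49 and a negative one for 0, against 14.2% and 13.4% of all tested genes. SKA1 (-2.37), LMNB1 (-2.27) and PKMYT1 (-2.18), which act at kinetochores, in the nuclear lamina and as a CDK1 inhibitory kinase, fell most in WT cells. PKMYT1 (-1.67), KIF15 (-1.35) and NCAPH (-1.32) fell most in KO cells. Under DMSO, 34 were called lower and 1, SKA2 (0.18), higher in KO cells, against 30.1% and 31.4% of all tested genes. Under Nutlin-3a 40 were called higher and 5 lower in KO cells, against 32.7% and 30.4% of all tested genes. The 5 lower genes included CKAP2 (-0.76), BORA (-0.70), CKS1B (-0.35) and CKS2 (-0.20).

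Subunits of the mitotic machinery that are present throughout the cycle changed less. Of 29 genes of the anaphase-promoting complex, cohesin and mitotic phosphatases, 21 were called lower and 3 higher in WT cells (median -0.29), and 15 lower and 2 higher in KO cells (median -0.17). The cohesin genes SMC1A (-1.33), SMC3 (-1.02) and RAD21 (-0.82) fell most in WT cells, and ANAPC16 (0.19), CDC16 (0.19) and PPP2CB (0.39) rose. The interaction was called for 5 upwards and 2 downwards, where 14.2% of all tested genes were called upwards and 13.4% downwards. For the responses, the shares of all tested genes were 29.2% lower and 29.4% higher in WT cells. In KO cells they were 20.6% lower and 18.1% higher.

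Genes that control transcription of the cell cycle program were a mixed list of 18. CDKN1A (p21) had 71.8 and 73.0 CPM with DMSO and 3125 and 2939 with Nutlin-3a in WT libraries, and 48.6 and 48.1 with DMSO and 1712 and 1653 with Nutlin-3a in KO libraries. It rose in both genotypes and reached a lower level in KO cells (-0.85, SE 0.047, edgeR adjusted p = 1.74e-11). FOXM1 and MYBL2 encode activators of mitotic genes. FOXM1 fell from 165 and 170.5 to 45.7 and 42.2 CPM in WT and from 134 and 136 to 67.8 and 68.7 CPM in KO libraries. MYBL2 fell from 171 and 174 to 19.8 and 19.1 CPM in WT and from 151 and 152 to 29.5 and 33.5 CPM in KO libraries. Their interactions were 0.95 and 0.88, both called, and thus of the same sign as those of the members. In all, 11 of the 18 were called lower and 4 higher in WT cells (CDKN1A, RBL2, LIN37 and NFYC), against 29.2% and 29.4% of all tested genes. In KO cells 10 were called lower and 2 higher (CDKN1A and NFYC), against 20.6% and 18.1%.

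Among the members and the other cell cycle lists, the same list holds the largest genotype difference under DMSO. RB1, the retinoblastoma protein that restrains E2F factors, measured 115 and 118 CPM with DMSO and 111 and 116 with Nutlin-3a in WT libraries, and 32.2 and 33.1 with DMSO and 29.5 and 30.4 with Nutlin-3a in KO libraries. KO libraries all lay far below WT libraries, by -1.83 (SE 0.052) under DMSO, and neither genotype had a called response to Nutlin-3a. TFDP1, the dimer partner of E2F factors, was also lower in KO cells under DMSO (-1.38, SE 0.046). Both genes are on chromosome 13, where the median KO-WT difference of 272 tested genes was -0.85 under DMSO and 75.4% were called lower. No member is on that chromosome. The part of these genotype differences in the members' values was not tested, and in a single KO population they cannot be told apart from the loss of FAM193A.

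The DNA replication genes, which act in S phase, were set beside the mitosis genes. All 19 licensing genes, among them the MCM helicase, were called lower in both genotypes, with medians of -2.64 in WT and -1.23 in KO cells. Of 29 DNA synthesis genes, 28 were called lower in WT (median -1.64) and 26 in KO cells (median -0.93), where LIG1 (0.25) and TYMS (0.16) were higher. The interaction was called positive for 18 of 19 and 28 of 29, with medians of 1.07 and 0.74, against 0.58 over the mitosis genes. The shares of all tested genes were 29.2% called lower in WT cells, 20.6% in KO cells and 14.2% with a positive interaction. The smaller response in KO cells was thus shared with these lists, and the lists were not tested against each other.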

How the data were processed

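Poly(A) RNA-seq libraries of 8 samples were grouped by the genotype and treatment in their titles, and each table column was assigned through its name. Per the submitters' processing notes, HTSeq 0.8.0 and the aligner TopHat2 2.1.1 were used on GRCh37 (hg19), besides Picard 2.9.4, SAMtools 1.5 and Bowtie2 2.2.9.0. Annotation and strand setting of the counting were not given in the sources used, and genes that overlap may share reads. The authors deposited whole read counts per gene and RPKM values, which for all 39 members gave whole gene lengths within 0.001 bases.

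edgeR 4.0.16 in R 4.3.3 fitted 4 group means over 8 libraries (4 residual degrees of freedom) after filterByExpr and TMM scaling. Two-sided quasi-likelihood tests covered 5 comparisons, with Benjamini-Hochberg adjustment over 15879 genes and a threshold of 0.05. SE is the log2 fold change over the root of F, and 95% intervals use the t distribution with 4 degrees of freedom. These intervals and the calls can differ. For KO minus WT under DMSO, the intervals of NEK2 (-0.31 to 0.026), ASPM (-0.023 to 0.37) and PTTG1 (-0.33 to 0.0061) span 0 although the test called them. The steps were tested on simulated data.

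The 39 members and the other lists were chosen with earlier results of these data known. Per-library values are given for the members of a hand-written list, for the extremes of each comparison and for those called against the members' median. Of other lists, the 3 called genes with the largest change and up to 4 called against the list's direction are named. SKA2, RB1, TFDP1 and members given without per-library values are described from the same fit. RefSeq (GRCh38.p14) served for promoters, synonyms and chromosome names alone. Alternatives used DESeq2 1.42.0 and limma 3.58.1.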

Additional observations from a re-analysis of the deposited data

Results flagged for a closer look

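For 37 of the 39 members, the response to Nutlin-3a differed between KO and WT cells by the interaction term of the edgeR fit (adjusted p under 0.05 over all tested genes). The values are KO response minus WT response on the log2 scale, and all of them are positive because the fall was smaller in KO cells. Over all tested genes, 14.2% had a called positive interaction.

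Among cyclin B, CDK1 and its switches these were CDC25B (0.63), CCNB2 (0.59), CCNB1 (0.57) and CDK1 (0.38). Among the mitotic kinases and their partners they were AURKB (1.40), PLK1 (0.87), BIRC5 (0.80), NEK2 (0.71), MELK (0.67), AURKA (0.55) and TPX2 (0.52). The checkpoint and anaphase genes gave UBE2C (0.64), BUB1 (0.62), TTK (0.60), SGOL1 (0.54), CDC20 (0.52) and BUB1B (0.43). At the centromere and kinetochore the values were NUF2 (0.83), CENPA (0.73), CENPE (0.51), CENPF (0.45) and NDC80 (0.42). Spindle motors and microtubule binders gave KIF2C (1.10), KIF11 (0.76), NUSAP1 (0.68), HMMR (0.66), KIF20A (0.63), GTSE1 (0.61), DLGAP5 (0.58), PRC1 (0.58), KIF23 (0.53), CKAP2L (0.51) and ASPM (0.50). For cytokinesis they were ANLN (0.54) and ECT2 (0.32), and for chromosome structure and the proliferation mark MKI67 (0.72) and TOP2A (0.31).

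AURKB and KIF2C stood apart at the upper end, the next value being that of PLK1.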

How the results depend on the processing

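Both Nutlin-3a responses kept direction for each of the 39 members under all alternatives run, and kept the call wherever each group held both replicates. The alternatives were the DESeq2 Wald test, size factors of DESeq2 or upper-quartile factors, limma-trend on RPKM and no low-count filter. Further ones were fits of 4 libraries, the replicate block and each library left out. The last left out the 3 libraries named above for genes that differed between replicates. The fit of 4 libraries gives no interaction. Where one library of a group is left out, the lone library is assumed to vary like the others. Without the 3 libraries, only KO DMSO keeps both replicates, so the spread rests on that group.

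The median WT response was -1.33 with limma-trend on log2(RPKM + 1) and -1.43 without the 3 libraries, against -1.47. The median of KO minus WT under DMSO was -0.16, and -0.098 with log2(RPKM + 0.1), with or without the low-value filter, and -0.097 with log2(RPKM + 1). Under Nutlin-3a it was 0.47, 0.56 with log2(RPKM + 0.1), with or without that filter, and 0.40 without the 3 libraries. On the RPKM scale the median of all genes under Nutlin-3a was itself 0.10, with 5402 called higher and 3249 lower (edgeR: 5190 and 4822), and under DMSO 4865 and 3495 (edgeR: 4990 and 4782). The count of members lower in KO cells under Nutlin-3a was 1 in place of 0 with DESeq2 size factors, no low-count filter and the replicate block, each time ANLN.

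Leaving out single libraries gave medians of -1.47 to -1.44 (WT response), -0.90 to -0.80 (KO response), -0.18 to -0.11 (KO minus WT under DMSO), 0.40 to 0.49 (under Nutlin-3a) and 0.53 to 0.63 (interaction). Counts ran from 14 to 22 lower and 3 to 4 higher under DMSO, 29 to 35 higher and 0 to 1 lower under Nutlin-3a, and 35 to 37 for the interaction. Over the other alternatives they were 15 (RPKM) to 22 lower and 3 to 6 (RPKM) higher under DMSO, and 30 to 37 (RPKM) higher under Nutlin-3a.

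Some members near 0 changed sign without a call. Under DMSO, CCNB2 was 0.048 with both RPKM scales and filters, 0.018 with upper-quartile factors, 0.036 without the 3 libraries, and -0.065 to 0.036 with a library left out. CKAP2L was 0.035 and 0.032 with RPKM plus 0.1 and 1, 0.0071 with upper-quartile factors and -0.099 to 0.045 with a library left out. KIF11 was 0.010 and 0.0099, KIF23 0.013 and 0.013, and TTK 0.011 and 0.010 on the 2 RPKM scales, and KIF11 -0.12 to 0.015 with a library left out. With the 2 DESeq2 alternatives CENPE was -0.020, KIF20A -0.0018 and -0.0019, and SGOL1 -0.0078 and -0.0083, and with a library left out they ran from -0.11 to 0.11, -0.042 to 0.088 and -0.066 to 0.097. Under Nutlin-3a, PTTG1 was 0.084 and 0.082 on the RPKM scales, 0.031 with upper-quartile factors and -0.10 to 0.089 with a library left out, and CDK1 -0.015 to 0.13.

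The labels do not say whether replicate numbers pair the samples. Over the 6 pairs of groups, the deviations of same-numbered replicates correlated at -0.021 to 0.164. Only the pair of WT DMSO and KO Nutlin-3a was above 0.1. Correlations near 0 cannot exclude a shared culture or day, so pairing was not settled. With the replicate block the median interaction was 0.59, against 0.58. The cause of these changes was not tested. With 2 replicates per group the precision is limited.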

Other observations

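Genotype differences outside the members had a chromosome pattern. Chromosome names from RefSeq (GRCh38.p14) were found for 15467 of the 15879 tested genes. On chromosome 13, the median KO-WT difference of 272 tested genes was -0.85 under DMSO and -0.76 under Nutlin-3a, and 75.4% of them were called lower under DMSO. The medians of the other chromosomes lay between -0.040 (chromosome 16) and 0.22 (chromosome 18, 228 genes, 50.4% called higher) under DMSO. Medians of the Nutlin-3a response on chromosome 13 were -0.063 in WT and -0.025 in KO cells, close to those of other chromosomes.

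Of the mitotic genes that are no members, SKA3, BORA, CKAP2 and CDC16 are on chromosome 13, and so are RB1 and TFDP1. These genes were singled out after their values were seen. No member is on chromosome 13, and NDC80 is the only member on chromosome 18. After the median of each member's own chromosome was subtracted, the members' median was -0.17 under DMSO and 0.42 under Nutlin-3a, and 38 of 39 lay above 0 under Nutlin-3a, among them PTTG1, which was at -0.0060 before. The exception was ANLN.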
